A study of Mus musculus with 8 samples.

Results

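The genes described here encode the SR proteins, the heterogeneous nuclear ribonucleoproteins (hnRNPs) and the SF3A, SF3B and U2AF proteins that recognise introns, measured in macrophages sorted from the mouse left ventricle. They were chosen by symbol (names beginning Srsf, Hnrnp, Sf3a, Sf3b or U2af, without numbered pseudogenes) and by a mean of at least 1 TPM (a transcript level scaled by transcript length and by the library's total) over 8 libraries. The rule gave 42 genes of 36708 gene IDs, namely 10 SR proteins, 20 hnRNPs, 9 SF3A and SF3B subunits and 3 U2AF genes. Since a measured level chose them, the levels below are a description. The lowest members were Hnrnpa0 with a mean of 2.91 TPM and Hnrnpul2 with 2.94 TPM. Below the threshold lay Srsf12, with a mean of 0.169 TPM.

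The study compared 4 libraries of the control BMT group (genotype and treatment both labelled Control) with 4 of the LOY BMT group (genotype LOY, treatment labelled Control). BMT is read as bone marrow transplant and LOY as loss of the Y chromosome. All 8 libraries came from living CD45.2+ Ly6G- CD64+ RFP+ cells, 6000 per library per the labels, where CD64 is a macrophage Fc receptor and RFP a red fluorescent protein. The labels used here do not state the strain, the age or how the Y chromosome was lost. They also do not say whether each library is a separate animal, so p-values measure only the spread between these libraries, which may be technical.

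SR proteins carry RNA recognition motifs and a tail rich in arginine and serine. They bind exonic enhancer sequences and help the splicing machinery choose an exon. hnRNPs coat nascent transcripts and often act in the opposite direction, by masking splice sites, and many also act in RNA export, stability and translation. U2AF marks the end of the intron, and SF3A and SF3B, as parts of the U2 small nuclear ribonucleoprotein, clamp the branch site. Many of these genes limit their own output through poison exons or retained introns that send the transcript to nonsense-mediated decay. The deposited TPM values are given per gene, so productive and unproductive isoforms were not told apart.

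All 11 macrophage markers were found, with a summed level of 36279 to 51906 TPM per library. Summed markers of neutrophils stayed at or below 102.2 TPM, of cardiomyocytes at or below 222.6 TPM and of T cells at or below 8.10 TPM. Most of the neutrophil sum was Csf3r, at a median of 77.6 TPM, against 0.47 TPM for S100a8. Erythroid markers summed to 90.4 to 489.2 TPM, highest in LOY replicate 2. NK cell markers summed to 0.28 to 0.55 TPM in control and 0.56 to 1.43 TPM in LOY libraries, low levels without overlap. The 4 B cell markers summed to 51.5 to 77.1 TPM in control and 39.6 to 46.6 TPM in LOY libraries, so those groups did not overlap. Endothelial markers summed to 14.2 to 18.9 TPM in control and 18.8 to 29.1 TPM in LOY libraries. The part of these cells in the results below was not tested, and in sorted bulk samples fewer cells of a type and less RNA per cell cannot be told apart. The summed level of 4 Y-linked genes was 80.8 to 109.1 TPM in control libraries and at most 2.77 TPM in LOY replicates 1, 3 and 4. LOY replicate 2 held 46.4 TPM, so it goes partly against its label, and results are also given without it. Between 11396 and 12139 genes reached 1 TPM per library, and read depth is unknown.

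Sequence bears on what can be read from one member. Hnrnpa3 (chromosome 2, 75659261 to 75669407, GRCm38) is 100% identical over 1488 aligned bases of the GENCODE M21 transcripts to Gm5641 (chromosome 3, 54481438 to 54482925). Gm5641 is annotated there as a processed transcript. Reads within that stretch cannot be told apart by sequence, whereas the longest Hnrnpa3 transcript has 5150 bases, and the remainder lies outside the stretch. The first 90 coding bases of the transcript Hnrnpa3-203, picked because they occur in Gm5641, are shown with the Hnrnpa3 start codon in capitals. They are bases 52 to 141 of that transcript and 29 to 118 of the Gm5641 transcript.
Hnrnpa3: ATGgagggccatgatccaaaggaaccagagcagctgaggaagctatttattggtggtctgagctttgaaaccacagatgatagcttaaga
Gm5641: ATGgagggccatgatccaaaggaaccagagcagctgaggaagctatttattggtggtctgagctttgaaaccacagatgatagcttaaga

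A pair of promoter windows is shown for Sf3a1 and Hnrnpm, members whose LOY libraries all lay above the control libraries. Hnrnpll also met that description, and its window is not shown. The RefSeq windows shown run from 250 bases before to 50 bases after the gene start on GRCm38.p6. They are chr11:4160104-4160403 on the plus strand for Sf3a1 and chr17:33685409-33685708 on the minus strand for Hnrnpm. Capitals mark matches to 6 searched motifs, which were the GC box GGGCGG, the ETS core CGGAAG, the CCAAT box, the TATA box read as TATAAA, the palindrome GCATGC and the cyclic AMP element TGACGTCA (both strands, overlaps allowed).
Sf3a1: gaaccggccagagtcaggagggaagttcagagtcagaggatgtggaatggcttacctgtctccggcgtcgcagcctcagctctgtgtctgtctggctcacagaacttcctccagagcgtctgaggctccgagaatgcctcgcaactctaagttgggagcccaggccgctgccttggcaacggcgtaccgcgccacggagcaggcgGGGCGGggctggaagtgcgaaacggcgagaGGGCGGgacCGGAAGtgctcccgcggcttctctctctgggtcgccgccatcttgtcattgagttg
Hnrnpm: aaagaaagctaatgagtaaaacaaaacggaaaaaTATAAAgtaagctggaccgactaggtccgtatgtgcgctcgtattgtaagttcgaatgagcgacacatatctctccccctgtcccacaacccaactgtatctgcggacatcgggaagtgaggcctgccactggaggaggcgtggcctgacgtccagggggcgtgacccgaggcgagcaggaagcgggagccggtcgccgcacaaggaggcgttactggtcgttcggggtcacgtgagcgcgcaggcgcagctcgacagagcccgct
The Sf3a1 window held GGGCGG at 2 places and CGGAAG once and was 63.3% G or C, with 24 CpG. The Hnrnpm window held TATAAA once, had 27 CpG and was 58% G or C.

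RefSeq windows were matched for 37 of the 42 genes. Their median G and C content was 63.3%, against 52.7% over all 27025 windows, and the median number of CpG was 28 against 7. GGGCGG stood in 73.0% of the members' windows and in 35.9% of all windows. CGGAAG stood in 48.6% against 17.2%, CCAAT in 51.4% against 37.9% and TATAAA in 13.5% against 14.2%. GCATGC was found in 10.8% against 7.94%, and TGACGTCA in none of the members' windows against 1.88% of all. A match is a description of letters and not a binding site, and G- and C-rich motifs follow the base composition.

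The 42 genes together took 0.485% to 0.589% of all TPM in a library. Their median level was 78.1 TPM, against 17.7 TPM for all 11725 genes tested, and 16 had a mean of at least 100 TPM. The hnRNPs made up 61.1% of this sum, SR proteins 23.9%, SF3A and SF3B 11.3% and U2AF 3.65%. Of that total, 3 hnRNPs stood highest, each above all other members in every library. Hnrnpk, whose KH domains bind cytosine-rich RNA, had a mean of 774.6 TPM. Hnrnpa2b1, which binds nascent RNA and transported mRNAs, had 641.8 TPM, and Hnrnpf, which binds runs of guanine, had 625.5 TPM.

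**Figure D1:**
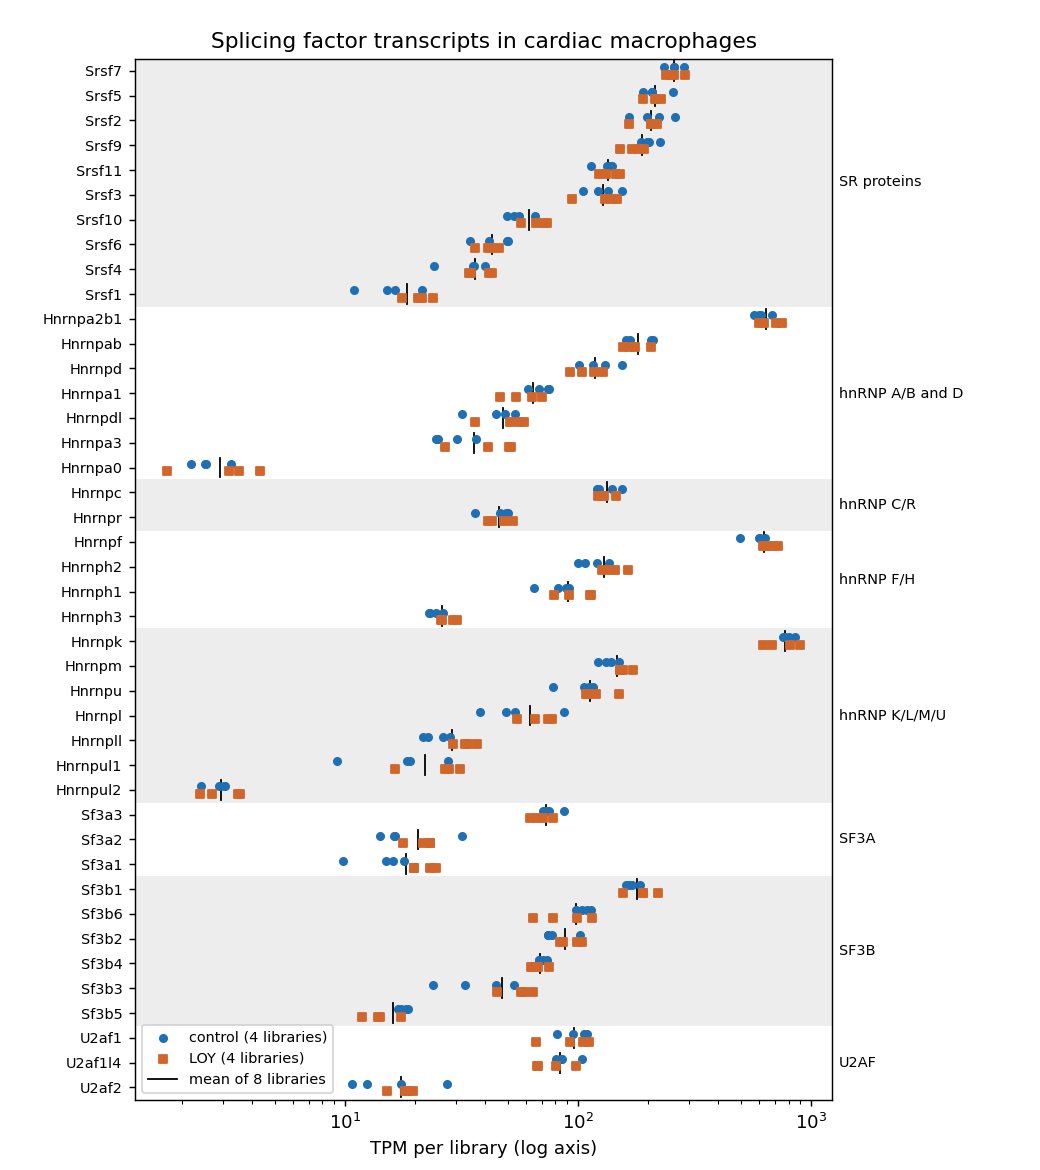
TPM of each of the 42 genes (vertical axis, grouped by family and ordered by mean level) in 4 control (circles) and 4 LOY (squares) libraries on a log axis, with the mean of 8 libraries as a bar. Hnrnpk, Hnrnpa2b1 and Hnrnpf stand above all others, and Hnrnpa0 and Hnrnpul2 stand lowest.

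No member passed the test between LOY and control libraries. Limma on log2(TPM + 1) called 0 of 42 members at an adjusted p under 0.05 and 0.0% of all genes tested, and the smallest adjusted p of a member was 0.181. At an unadjusted p under 0.05, 5 members were higher in LOY libraries (11.9%), against a background of 19.3%, and 0 were lower, against 3.45%. In 3 members every LOY library lay above every control library (7.14%, background 6.76%), and in 0 the reverse held (background 2.61%). These shares were near or below those of all genes.

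The median log2 fold change of the 42 genes (LOY minus control) was 0.13, against 0.16 for all genes tested, and 19 of 42 members lay above that median. The fold change was above 0 for 26 members (61.9%) and for 68.2% of all genes. The 95% interval lay within -1 to 1 for 40 of 42 members (95.2%, against 79.8% of all genes) and within -0.5 to 0.5 for 21. Hnrnpul1, at 0.50 with an interval of -0.17 to 1.16, and Sf3b3, at 0.58 with 0.08 to 1.08, were the exceptions to the wider bound. With median-of-ratios scaling the median of all genes moved to 0.00 and that of the members to -0.05, so fold changes here read best against the median of all genes.

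**Figure D2:**
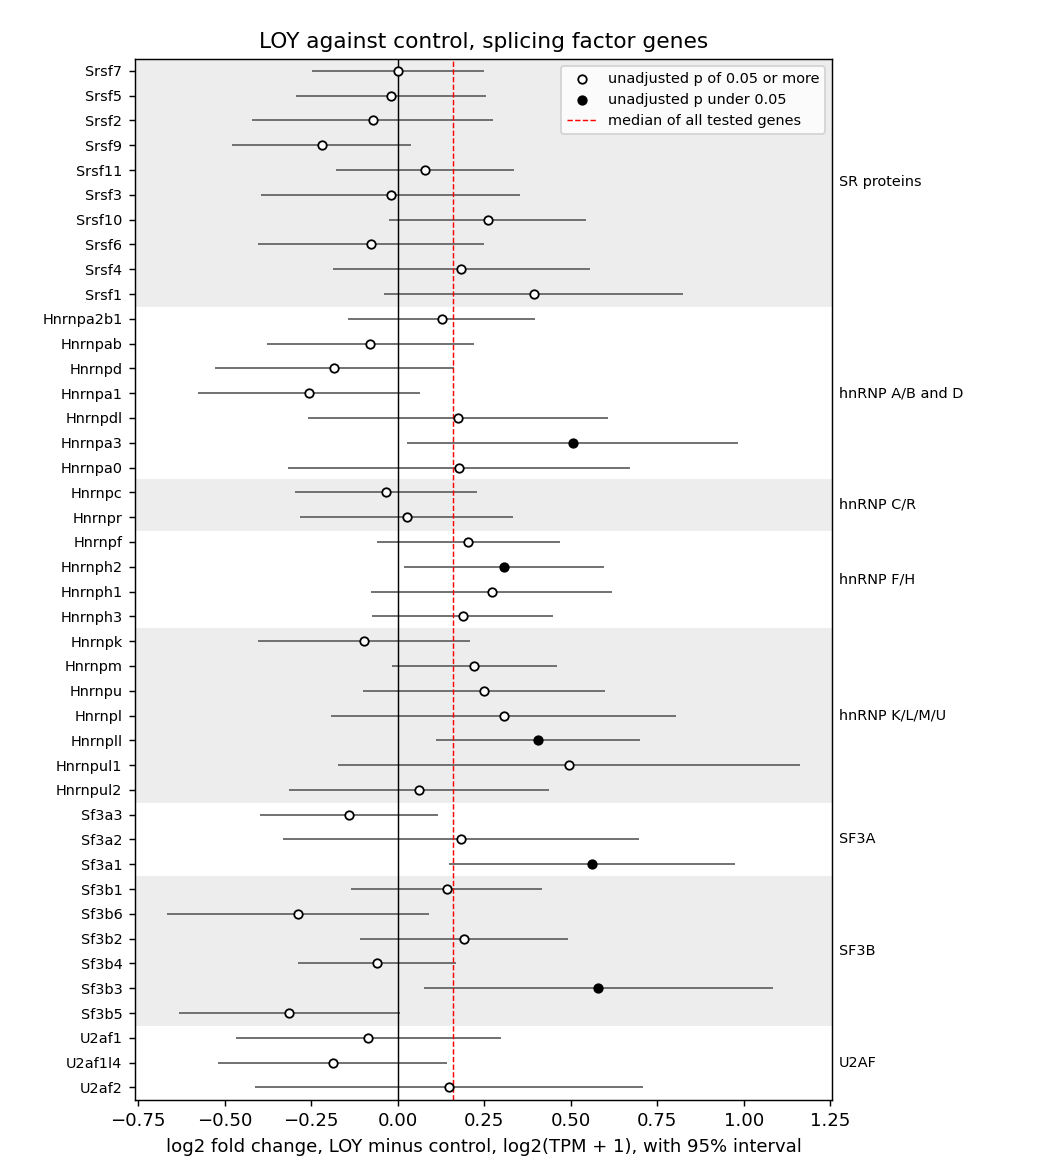
Log2 fold change (LOY minus control, horizontal axis) of each of the 42 genes with its 95% interval from limma on log2(TPM + 1), 4 libraries a group. Filled points mark the 5 genes with an unadjusted p under 0.05, and the dashed line marks 0.16, the median of all 11725 genes tested.

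The SR proteins as a group had nearly the same summed level in both groups, 1297.8 ± 84.7 TPM (SD, n = 4) in the control group and 1277.5 ± 41.5 TPM (SD, n = 4) in the LOY group. Their median log2 fold change was -0.01, with 5 of 10 above 0 (68.2% of all genes), and 0 of 10 had an unadjusted p under 0.05. With median-of-ratios scaling that median was -0.19, and with quantile normalization it was 0.02. With a trend on transcript length and G and C content removed from each library it was -0.05.

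Srsf7, an SR protein with a zinc knuckle that also serves as an adaptor for mRNA export, was the most abundant of them. It measured 258.6, 258.4, 284.1 and 233.7 TPM in control libraries 1 to 4 and 288.7, 259.1, 238.2 and 249.7 TPM in LOY libraries 1 to 4. The groups overlapped across nearly their whole range, and the log2 fold change was 0.00 with a 95% interval of -0.25 to 0.25. Srsf7 took 20.0% ± 2.25 (SD, n = 4) of the SR protein total in the control group and 20.3% ± 1.55 (SD, n = 4) in the LOY group.

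The order of the SR genes by mean level was Srsf7, Srsf5, Srsf2, Srsf9, Srsf11, Srsf3, Srsf10, Srsf6, Srsf4 and Srsf1. Srsf7 exceeded Srsf5 in 8 of 8 libraries, but Srsf5 exceeded Srsf2, a factor that binds both cytosine- and guanine-rich enhancers, in 4 of 8, and Srsf11 exceeded Srsf3 in 4 of 8. Ranges over the 8 libraries separated Srsf9 from Srsf11, Srsf3 from Srsf10 and Srsf4 from Srsf1, and no other neighbours in this order. Srsf1, the founding splicing and export factor of the family, was the lowest, at 16.01 ± 4.32 TPM (SD, n = 4) in the control group and 20.9 ± 2.58 TPM (SD, n = 4) in the LOY group (log2 fold change 0.39, interval -0.04 to 0.82, adjusted p = 0.247).

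Srsf10, a relative that represses splicing when dephosphorylated, had a log2 fold change of 0.26 (adjusted p = 0.246), from 55.9 ± 6.75 to 67.0 ± 7.29 TPM (SD, n = 4 each). Srsf9 lay on the other side, at 202.5 ± 16.2 TPM (SD, n = 4) in the control group and 174.0 ± 17.6 TPM (SD, n = 4) in the LOY group, with a log2 fold change of -0.22 and an adjusted p of 0.272. Its groups overlapped, since LOY replicate 1 at 192.2 TPM lay above control replicate 1 at 185.9 TPM. Srsf2, Srsf3, Srsf4, Srsf5, Srsf6 and Srsf11 had log2 fold changes between -0.08 and 0.18.

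The 20 hnRNP genes summed to 3192.7 ± 234.7 TPM (SD, n = 4) in the control group and 3389.7 ± 244.5 TPM (SD, n = 4) in the LOY group, groups that overlapped. Their median log2 fold change was 0.18, 15 of 20 were above 0 (68.2% of all genes), and 3 were higher at an unadjusted p under 0.05 (19.3% of all genes). Their median was 0.10 with quantile normalization and 0.02 with median-of-ratios scaling. It turned to -0.03 when a trend on transcript length and G and C content was removed from each library. That removal also centred each library, with the median of all genes at -0.01.

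The 4 genes of the F and H class, whose proteins bind guanine runs near splice sites, had fold changes above 0 and above the median of all genes. Their sum was 803.9 ± 84.3 TPM (SD, n = 4) in the control group and 938.9 ± 60.9 TPM (SD, n = 4) in the LOY group. LOY sums were 914.8, 1025.5, 884.5 and 930.9 TPM and control sums 826.7, 825.1, 683.5 and 880.3 TPM, so the groups did not overlap, by a small margin. These are sums of the deposited TPM, and with median-of-ratios scaling the sums of the groups overlapped. No share over all genes was taken for the sum of a class. The median log2 fold change of the class was 0.24, and it was 0.06 with median-of-ratios scaling. Under quantile normalization, and with the length and composition trend removed, 3 of the 4 stayed above 0.

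Hnrnpf, the most abundant of this class, measured 598.1, 602.2, 495.8 and 632.6 TPM in control and 680.2, 722.6, 622.9 and 649.4 TPM in LOY libraries 1 to 4. Control replicate 4 lay above LOY replicate 3, and the log2 fold change was 0.20 (SE 0.119, adjusted p = 0.311). Hnrnph2 (chromosome X, 134601179 to 134607060) measured 120.4, 107.3, 99.8 and 135.7 TPM in control and 126.8, 163.7, 144.5 and 137.5 TPM in LOY libraries. LOY replicates 2 to 4 exceeded all controls, whereas LOY replicate 1 lay below control replicate 4. Its log2 fold change was 0.31 (SE 0.130, unadjusted p = 0.0395, adjusted p = 0.204). Hnrnph1 and Hnrnph3 stood at 0.27 and 0.19 (adjusted p = 0.306 and 0.336).

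Hnrnpll, a relative of Hnrnpl known in lymphocytes for switching the exons of the CD45 gene Ptprc, had the smallest p of all members. It measured 28.3, 22.8, 21.6 and 26.4 TPM in control libraries 1 to 4 and 32.6, 33.8, 29.1 and 36.9 TPM in LOY libraries 1 to 4. Every LOY library lay above every control library, the closest pair being LOY replicate 3 and control replicate 1. The means were 24.8 ± 3.09 and 33.1 ± 3.23 TPM (SD, n = 4 each), a log2 fold change of 0.41 (SE 0.133, interval 0.11 to 0.70, unadjusted p = 0.0120, adjusted p = 0.181). Hnrnpl, which binds CA repeats, was wider in its spread, at 56.8 ± 20.97 and 67.9 ± 9.95 TPM (SD, n = 4 each), with a log2 fold change of 0.31 and an adjusted p of 0.408. It was 0.53 without control replicate 1 and 0.14 without control replicate 3.

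Hnrnpm, a nuclear protein that binds guanine- and uridine-rich sites, also had groups that did not overlap. It measured 131.6, 138.8, 121.8 and 149.6 TPM in control and 151.1, 171.9, 156.2 and 152.0 TPM in LOY libraries, with a log2 fold change of 0.22 (SE 0.108, adjusted p = 0.243). The closest pair were control replicate 4 and LOY replicate 1. With median-of-ratios scaling the log2 fold change of Hnrnpm was 0.04, and its groups overlapped. Hnrnpm shares 1169 exonic bases on the same strand with March2 (mean 114.3 TPM), so reads there can be assigned to either gene.

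Hnrnpk measured 803.1, 853.8, 774.9 and 755.3 TPM in control and 898.8, 809.3, 618.9 and 682.7 TPM in LOY libraries. LOY libraries held both its highest and its lowest value, and the log2 fold change was -0.10 (SE 0.138, adjusted p = 0.687). In its class, Hnrnpu, which binds chromatin-associated RNA, stood at 0.25, Hnrnpul1 at 0.50 and Hnrnpul2 at 0.06 (adjusted p = 0.340, 0.324 and 0.840). Hnrnpul1 was at 0.71 without control replicate 1 and 0.21 without control replicate 3.

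Hnrnpa2b1 measured 596.3, 607.0, 567.9 and 680.6 TPM in control and 595.1, 753.5, 630.7 and 703.8 TPM in LOY libraries, which overlapped (log2 fold change 0.13, SE 0.121, adjusted p = 0.527). Hnrnpa1, its close relative and a classical silencer of exons, measured 61.2, 74.1, 67.9 and 75.03 TPM in control and 46.4, 70.2, 63.5 and 54.3 TPM in LOY libraries. LOY replicates 1 and 4 lay below all controls, and the other LOY libraries lay among them. The log2 fold change was -0.26 (SE 0.144, adjusted p = 0.296), among the 3 lowest of the members. Hnrnpab, Hnrnpd and Hnrnpdl, RNA-binding proteins that include regulators of AU-rich mRNAs, had log2 fold changes of -0.08, -0.18 and 0.17.

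Hnrnpa3 measured 24.97, 36.6, 24.6 and 30.4 TPM in control and 26.8, 50.4, 41.1 and 51.8 TPM in LOY libraries. LOY replicates 2 to 4 exceeded all controls, and LOY replicate 1 lay among them. Its log2 fold change was 0.51 (SE 0.215, unadjusted p = 0.0403, adjusted p = 0.205). The identical Gm5641, examined after these values were seen, held 66.3% of the TPM of the pair, with 73.0 ± 13.4 TPM in the control group and 67.9 ± 13.3 TPM in the LOY group (SD, n = 4 each). Summed, the pair stood at 102.2 ± 18.5 and 110.5 ± 24.5 TPM (SD, n = 4 each), a log2 fold change of 0.10 (SE 0.188, unadjusted p = 0.604). How the deposited values divided reads between these copies was not tested. Copies at least 95% identical over at least 300 bases were found for 14 members, but a copy with at least 1 TPM was found only for Hnrnpa3 and U2af1.

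**Figure D3:**
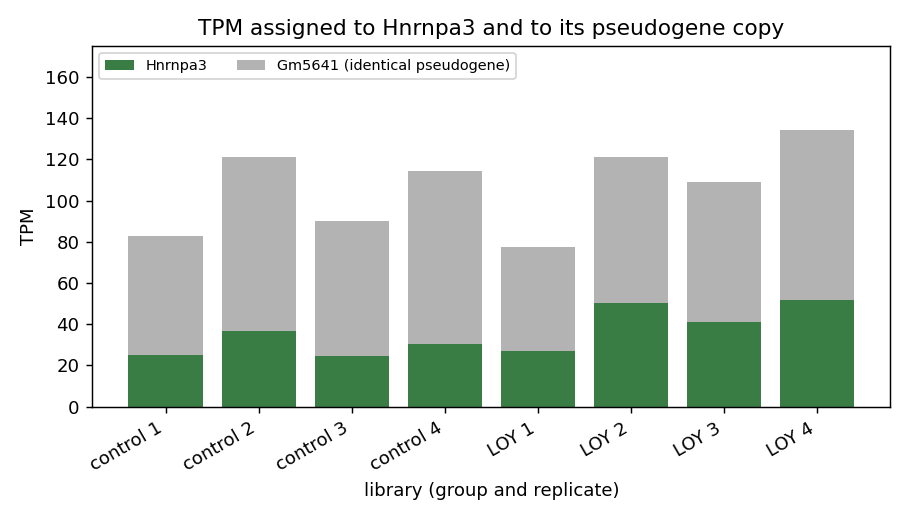
TPM per library assigned to Hnrnpa3 (lower part of each bar) and to its identical copy Gm5641 (upper part), for control and LOY replicates 1 to 4. Gm5641 holds the larger part of every bar, and the bars of the groups overlap in height.

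Hnrnpc, which binds uridine tracts and keeps intronic repeats from being spliced, measured 123.6, 154.5, 120.6 and 140.4 TPM in control and 128.9, 128.0, 122.2 and 146.2 TPM in LOY libraries. The LOY values lay inside the control range (log2 fold change -0.03, SE 0.118, interval -0.30 to 0.23, adjusted p = 0.878). Hnrnpr stood at 0.03 with an interval of -0.28 to 0.33.

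The 9 SF3A and SF3B genes summed to 595.8 ± 28.0 TPM (SD, n = 4) in the control group and 621.3 ± 24.5 TPM (SD, n = 4) in the LOY group, which overlapped. Their median log2 fold change was 0.14, with 5 of 9 above 0, and turned to -0.04 with median-of-ratios scaling, -0.06 with quantile normalization and -0.11 without the length and composition trend. Single subunits lay at both ends of the range of all members, from Sf3b5 to Sf3b3.

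Sf3a1, the largest subunit of SF3A, measured 17.96, 14.97, 9.81 and 16.1 TPM in control and 19.8, 24.6, 19.8 and 23.1 TPM in LOY libraries. Every LOY library lay above every control library, and control replicate 3 was the lowest of all. The means were 14.7 ± 3.50 and 21.8 ± 2.41 TPM (SD, n = 4 each), a log2 fold change of 0.56 (SE 0.186, interval 0.15 to 0.98, unadjusted p = 0.0124, adjusted p = 0.181). Sf3a3, the most abundant SF3A subunit, measured 70.9, 75.2, 72.9 and 86.7 TPM in control and 66.4, 77.9, 70.6 and 62.2 TPM in LOY libraries. These groups overlapped, with a log2 fold change of -0.14 (SE 0.116, adjusted p = 0.460). Sf3a2 stood at 19.6 ± 8.17 and 21.4 ± 2.60 TPM (SD, n = 4 each), where control replicate 1 at 31.8 TPM was the highest of all libraries. Its log2 fold change of 0.18 was 0.43 without control replicate 1 and 0.06 without control replicate 3.

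Sf3b1, the subunit that closes around the branch helix and that is recurrently mutated in human myelodysplasia, measured 160.4, 184.4, 171.0 and 164.8 TPM in control and 219.9, 189.1, 156.4 and 190.2 TPM in LOY libraries. LOY replicate 3 was the lowest of all 8, and the other LOY libraries exceeded every control (log2 fold change 0.14, SE 0.124, adjusted p = 0.488). Sf3b3, a scaffold of SF3B built of beta-propellers, measured 53.1, 32.9, 23.8 and 44.5 TPM in control and 44.9, 64.3, 56.7 and 58.7 TPM in LOY libraries. Control replicate 1 lay above LOY replicate 1, and control replicate 3 was the lowest. The means were 38.6 ± 12.8 and 56.1 ± 8.17 TPM (SD, n = 4 each), a log2 fold change of 0.58 (SE 0.227, unadjusted p = 0.0282, adjusted p = 0.189).

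Sf3b5, the smallest subunit, measured 16.9, 18.3, 18.7 and 17.5 TPM in control and 11.8, 13.8, 17.4 and 14.1 TPM in LOY libraries. LOY replicate 3 lay above control replicate 1, and the other LOY libraries lay below all controls. The log2 fold change, the lowest of the members, was -0.31 (SE 0.144, unadjusted p = 0.0540, adjusted p = 0.224). Sf3b6, which touches the branch adenosine, measured 98.1, 109.4, 103.8 and 113.7 TPM in control and 63.9, 114.4, 99.2 and 77.9 TPM in LOY libraries. Its LOY values spread from far below the controls to above them, at a log2 fold change of -0.29 (SE 0.171, adjusted p = 0.316). Sf3b2 and Sf3b4, which contact the RNA beside the branch site, stood at 0.19 and -0.06 (adjusted p = 0.393 and 0.735).

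Ratios within a library need no scaling between libraries, and are given without a test for pairs chosen after their values were seen. The log2 ratio of Sf3a1 to Sf3a3 was -2.41 ± 0.377 (SD, n = 4) in the control group and -1.67 ± 0.174 (SD, n = 4) in the LOY group, with no overlap. That of Sf3b3 to Sf3b5 was 1.05 ± 0.570 and 1.98 ± 0.217 (SD, n = 4 each), again with every LOY library above every control. That of Sf3b1 to Sf3b6 was 0.68 ± 0.0976 and 1.11 ± 0.529 (SD, n = 4 each), and it overlapped. Of the other pairs taken, Hnrnpa3 to Hnrnpa1 had no overlap and Srsf1 to Srsf9 overlapped. Every pair set a member with a higher fold change over a member with a lower one. No share over all pairs of genes was taken. A ratio also keeps differences that run with transcript length (longest transcript 4920 bases for Sf3a1 and 1820 for Sf3a3).

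**Figure D4:**
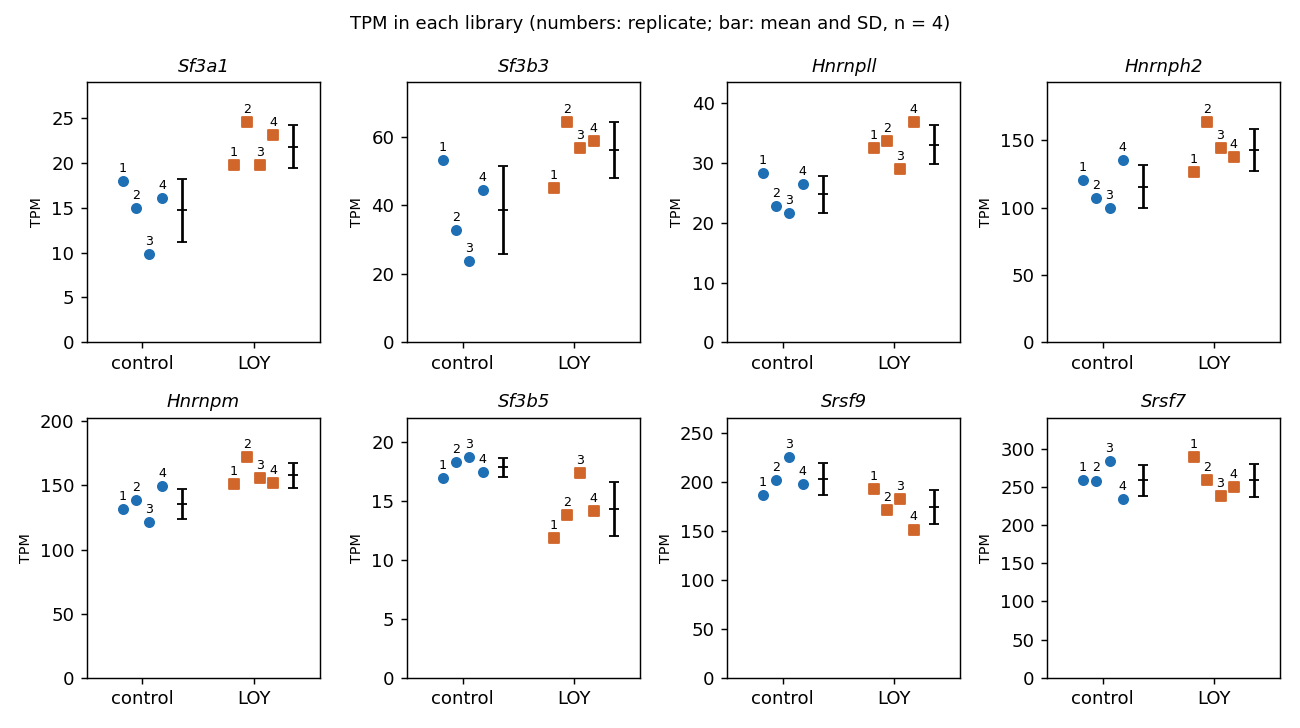
TPM per library (numbered by replicate, axes from 0) of 8 members in control (circles) and LOY (squares) groups, with the mean and SD (n = 4). In Sf3a1, Hnrnpll and Hnrnpm the groups do not overlap, in Sf3b3, Hnrnph2, Sf3b5 and Srsf9 they do, and Srsf7 has nearly the same mean in both.

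U2AF genes summed to 203.7 ± 10.5 TPM (SD, n = 4) in the control group and 189.7 ± 14.6 TPM (SD, n = 4) in the LOY group. U2af1, which reads the AG that ends an intron, measured 81.3, 106.4, 94.97 and 109.6 TPM in control and 65.9, 92.2, 111.4 and 104.9 TPM in LOY libraries. The LOY values spread beyond the controls at both ends (log2 fold change -0.08, SE 0.173, adjusted p = 0.784). U2af2, its partner on the polypyrimidine tract, had a log2 fold change of 0.15 (interval -0.41 to 0.71), which was 0.40 without control replicate 1 and -0.03 without control replicate 3. Its mean of 17.4 TPM over the 8 libraries was below the 95.8 TPM of U2af1. The paralog U2af1l4, at 88.6 ± 10.8 and 78.2 ± 14.8 TPM (SD, n = 4 each), shares 1086 exonic bases with the same-strand gene Gm49396 (mean 14.1 TPM). It also shares 119 with the opposite-strand gene Psenen (mean 238.8 TPM), and the library kit keeps no strand.

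Fold change ran with transcript length in these genes as in all genes. Spearman's rho between log2 fold change and longest annotated transcript was 0.48 over the 42 members and 0.49 over all tested genes, as descriptions over genes that share libraries. The 21 members of 884 to 3118 bases had a median change of -0.03 (log2), and 10 were above 0 and 0 at an unadjusted p under 0.05. The 21 members of 3222 to 21452 bases had a median of 0.22, with 16 above 0, and held all 5 members at that p (23.8%). Among all tested genes split at the members' median length, 12.9% of the shorter and 32.5% of the longer had such a p in either direction, with medians of 0.01 and 0.32. With the length and composition trend removed, the log2 fold change was 0.21 for Sf3a1, 0.27 for Sf3b3 and 0.14 for Hnrnpll, none with an unadjusted p under 0.05. That step also centred each library, and the median of all genes moved from 0.16 to -0.01. With median-of-ratios scaling, which leaves length and composition as they are, the log2 fold changes were 0.39, 0.40 and 0.23. The part of length in these fold changes was not tested further.

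**Figure D5:**
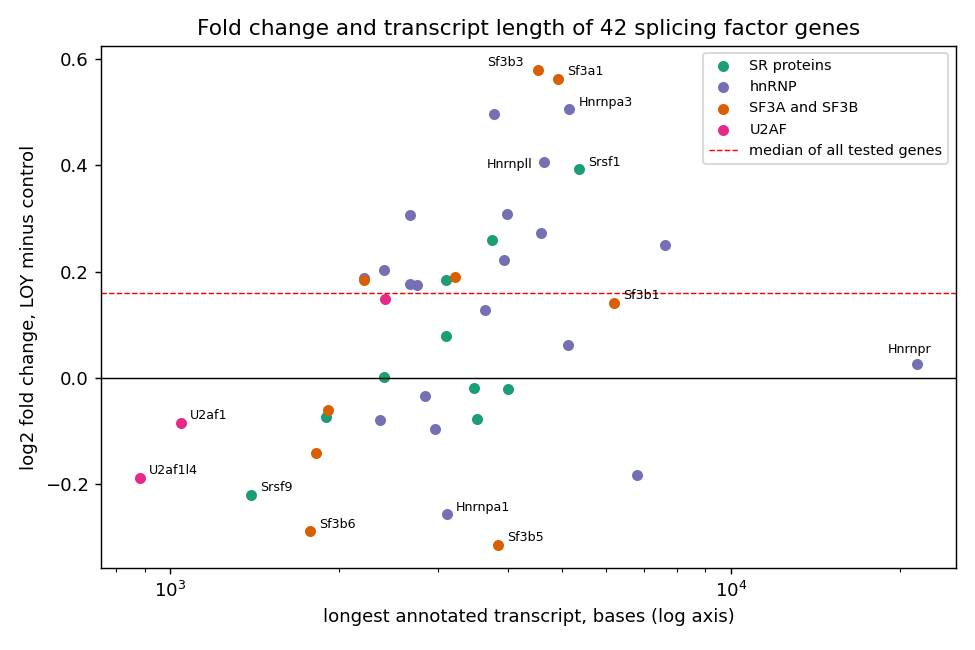
Log2 fold change (LOY minus control) against the longest annotated transcript in bases (log axis) for the 42 genes, coloured by family, with the median of all tested genes dashed. The genes from 4525 (Sf3b3) to 5362 bases (Srsf1) include Sf3a1, Hnrnpa3 and Hnrnpll, while U2af1, U2af1l4, Srsf9 and Sf3b6, the shortest at up to 1774 bases, lie below 0.

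Single libraries moved these counts. Control replicate 3 held the lowest value of 23 of the 42 members, LOY replicate 1 of 8, and LOY replicate 4 held the highest of 11. The same count was not taken over all genes. The median log2(TPM + 1) of all genes tested was likewise lowest in control replicate 3 (3.84) and highest in LOY replicate 4 (4.37). In LOY replicate 1 it was 4.27. LOY replicate 1 also had the lowest sum of 13 mitochondrially encoded genes, 11481 TPM against 18696 to 25283 TPM elsewhere, and the highest cardiomyocyte sum, 222.6 TPM. Without it the log2 fold change was -0.14 for Sf3b6, -0.15 for Hnrnpa1 and -0.23 for Sf3b5, and 0.71 for Hnrnpa3, 0.61 for Sf3a1 and 0.41 for Hnrnpll. Without control replicate 1, Sf3b3 (log2 fold change 0.75, adjusted p = 0.0375), Sf3a1 (0.66, adjusted p = 0.0396) and Hnrnpll (0.47, adjusted p = 0.0474) passed, against a background of 14.9% of all genes called higher. With library weights, 7 members passed (Sf3b3, Sf3a1, Hnrnpll, Hnrnph2, Hnrnpa3, Hnrnpul1 and Srsf1, adjusted p 0.0123 to 0.0472), against 23.5%. Without LOY replicate 2, the library with partial Y signal, 0 passed. There Sf3a1 and Hnrnpll stayed higher at an unadjusted p under 0.05 (background 11.4%), at 0.51 and 0.39. Sf3b6 and Hnrnpa1 were lower at that p (background 2.68%), at -0.42 and -0.35. Without control replicate 3, 2 members were higher at that p (background 9.93%), Sf3a1 at 0.39 and Hnrnpll at 0.34.

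In the authors' deposited table, 0 members had an adjusted p under 0.05, where 4.32% of the genes tested here were higher. That deposited table gave 3 members an unadjusted p under 0.05, all higher, against 23.7% of genes. In the authors' deposited table these were Sf3a1 (log2 fold change 0.57, adjusted p = 0.0876), Sf3b3 (0.66, adjusted p = 0.121) and Hnrnpll (0.44, adjusted p = 0.180). Its sign matched that of the limma fit for 40 of 42 members.

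Replicate spread in these genes was like that of genes of the same level. The median coefficient of variation of a member was 13.4% in control and 11.9% in LOY libraries. Over the 2614 genes between the members' quartiles of level (35.9 to 134.1 TPM) it was 13.6% and 12.8%.

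Genes that work with these factors gave 0 calls at an adjusted p under 0.05 in 6 related lists. Of 11 genes of SR protein kinases and transport, 5 were higher at an unadjusted p under 0.05 and 0 lower (19.3% and 3.45% of all genes tested), with a median log2 fold change of 0.29. They include Nxf1, the mRNA export receptor that SR proteins recruit, at 64.5 ± 14.2 and 95.4 ± 9.28 TPM (SD, n = 4 each), a log2 fold change of 0.58 with no overlap (adjusted p = 0.179). Tnpo3, the importin that carries SR proteins into the nucleus, stood at 0.46 with no overlap (adjusted p = 0.182). The kinase gene Dyrk1a stood at 1.21 with overlap (adjusted p = 0.179). Of all genes tested, 6.76% had every LOY library above every control library.

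Of 21 SR-related proteins, 6 were higher and 0 lower at that p (19.3% and 3.45% of all genes tested). They include Bclaf1 at 0.36, the exon enhancer protein Tra2a at 0.40 and Scaf8 at 0.71. Of 23 hnRNP relatives, 5 were higher and 0 lower (19.3% and 3.45% of all genes tested). They include the repressor Ptbp3 at 0.55, Celf1 at 0.60 and Tardbp, which encodes TDP-43, at 0.40. Of 10 genes of nonsense-mediated decay, 3 were higher and 0 lower (19.3% and 3.45% of all genes tested). They include the helicase Upf1 at 1.08 and Smg9 at 0.43. Upf1 was at 21.9 TPM in control replicate 1, with the remaining controls at 4.16 to 11.7 TPM, against 12.6 to 27.2 TPM in LOY libraries.

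Of 16 U2 partners, 1 was higher and 1 lower, namely the branch-site protein Sf1 at 0.52 and Dnajc8 at -0.30. The 34 other proteins of small nuclear ribonucleoproteins had 1 member higher and 5 lower at that p, against the same shares of all genes. Their median was -0.17. Among them were Snrpb2 at -0.36, Snrpa1, a U2 protein, at -0.32 and Lsm7 at -0.36. Snrpb2 measured 53.0 ± 8.95 TPM in the control group and 40.6 ± 0.727 TPM in the LOY group (SD, n = 4 each).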

How the data were processed

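RNA of 6000 sorted macrophages per library was made into SMART-Seq v4 cDNA and Nextera XT libraries, per the labels' protocols. The tools bcl2fastq 2.17, Trimmomatic 0.36, STAR 2.5.2b and featureCounts of Subread 1.5.2 are named in the submitters' processing notes. The deposited values are TPM per gene, per the file headers, which end in TPM_sum. The tool that made them is not given in the sources. The same deposited table holds the authors' log2 fold change and standard error, p-value, adjusted p and baseMean, under the column names of a DESeq2 table. Columns named WT and KO were read as control and LOY from the names alone.

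The filter, a mean of at least 1 TPM, kept 11881 genes, and 156 that repeat another ID were removed, leaving 11725; all 42 members passed, since the same mean chose them. Limma 3.58.1 (trend, robust) in R 4.3.3 was fitted on log2(TPM + 1), two-sided, with Benjamini-Hochberg adjustment over all genes and a threshold of 0.05. A pseudocount of 1 understates changes of low genes. The median half-width of the 95% interval was 0.32 for members. Tested on simulated data for this comparison with 11725 genes, the fit recovered 68% of log2 changes of 1 and 96% of 2, with 5 false calls. Symbols, lengths and copies came from GENCODE M21 (35868 of 36708 IDs matched; blastn 2.17.0). Members and lists were chosen with earlier results of these data known. Values per library are given for members with an unadjusted p under 0.05, the most abundant member of each class and the 3 lowest fold changes; from each related list, the 3 smallest p-values are named, except 1 gene that is not reported here; others were chosen after their values were seen. Alternatives were other pseudocounts, filters, scalings, a length and composition trend, the replicate block, limma options, library weights, repeated IDs and left-out libraries; summing Hnrnpa3 with Gm5641 was chosen after seeing the data.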

Additional observations from a re-analysis of the deposited data

Results flagged for a closer look

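In control replicate 1, Sf3a2 stood at 31.8 TPM, apart from the other control libraries at 14.1 to 16.5 TPM, and the gap took 0.865 of the range of the group. In the same library Sf3b2 stood at 102.0 TPM, against 74.6 to 77.0 TPM in the others, with a gap of 0.912 of the range. Of 84 groups of 4 libraries (42 genes in control and LOY), these 2 exceeded Dixon's 95% critical value, which chance exceeds in about 1 of 20 groups.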

How the results depend on the processing

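The 5 members with an unadjusted p under 0.05 kept their direction under all alternatives. Sf3a1 kept that p under 19 of 20, Hnrnpll under 17 and Sf3b3 under 14, Hnrnph2 under 9 of 20 and Hnrnpa3 under 9 of 21. Read depth is unknown, and 4 libraries a group limit the precision. At an unadjusted p under 0.05, higher and lower members numbered 5 and 0 in the reported fit (19.3% and 3.45% of all genes). They numbered 3 and 2 with quantile normalization (9.74% and 9.7%), and 2 and 6 with median-of-ratios scaling (10.8% and 11%). With the length and composition trend removed they numbered 0 and 3 (7.52% and 7.76%), at a median of -0.053 (-0.011 over all genes). Under median-of-ratios scaling the median was -0.047. There every LOY library lay above every control in 2 members and below in 1 (4.04% and 5.24% of all genes). Lower members numbered 1 with no filter and 1 for limma without trend and robust options (2.38% and 2.93% of all genes). Library weights called 7 members and gave 12 higher and 3 lower at the unadjusted p (33.6% and 7.2% of all genes). Without control replicate 1 and LOY replicate 2 together, 7 were higher and 2 lower at that p (24% and 2.73% of all genes), and groups did not overlap in 15 members, 10 above and 5 below (26.3% and 5.9%). Leaving out each library in turn, calls ranged from 0 to 3, with 3 only without control replicate 1 (14.9% of all genes called higher there). At the unadjusted p, higher members ranged from 2 to 9 and lower ones from 0 to 2 (9.93% to 29.5% and 1.88% to 5.09% of all genes). Groups did not overlap in 3 to 12 members, 3 to 10 above and 0 to 2 below. Over all genes, 7.04% to 24.9% lay above and 3.07% to 6.12% below. Same-numbered replicates did not deviate together (Pearson's r of -0.15 to 0.04). With 4 libraries a group, this cannot decide whether the numbers pair the libraries. The replicate block gave 4 higher and 0 lower (17.7% and 3.51% of all genes). The causes of these shifts were not tested.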
